A study of Mus musculus with 8 samples.

Results

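Brain capillaries are tubes of endothelial cells wrapped by pericytes, and this pair of cell types forms the blood-brain barrier. Endothelial cells are held to their fate by growth factor receptors and transcription factors, are sealed by tight junctions, and carry transporters that decide which nutrients, lipids and drugs cross. Pericytes are recruited through the PDGF receptor beta and share a channel and receptor repertoire with the smooth muscle of larger vessels. A set of 32 genes of these cells was examined: 18 endothelial identity genes, 7 genes of barrier transport and 7 pericyte and mural genes. The genes were picked by name, and each was read from the probe that carries its symbol in the platform's annotation, with the brightest kept where there were several. A probe was found for 30 of the 32, 1 probe each, among 20690 probes with a gene symbol. Ly6a, a surface antigen of brain endothelium, and Pltp, the phospholipid transfer protein gene, had no probe under their symbols and were not analysed here.

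RNA came from the dorsal part of the hippocampal dentate gyrus in male C57BL/6J mice aged 8 to 12 weeks. The genotype was wild type (WT, 4 arrays) or Cav3.1 KO (4 arrays), a knockout of a T-type calcium channel. The probe of Cacna1g, the gene of that channel, was at 6.43, 6.61, 6.53 and 6.61 in WT and 6.55, 6.43, 6.39 and 6.48 in Cav3.1 KO. The groups overlapped, and since the position of the probe relative to the deleted part is not known here, it does not check the labels. The labels give neither the cells in which the channel was lost nor whether each array was a separate animal, so the p-values reflect the spread among these 8 samples only, part of which may be technical. The tissue was whole dissected dentate gyrus, in which vessel cells are a minority, and fewer cells of a type cannot be told apart from less RNA per cell.

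Values are normalised log2 spot intensities. Each difference is the Cav3.1 KO mean less the WT mean. A gene is said to have risen or fallen where the adjusted p of limma (Benjamini-Hochberg over all 21150 probes tested) was under 0.05. Mean blank spots lay between 53.0 and 63.4 on the 8 arrays, and 85.4% to 93.0% of probes were detected, that is, brighter than the 95th percentile of the array's blank spots. The file headers give lines between the 3 scan gains, and the slope between gains 1 and 3 formed 2 sets of arrays, at 0.244 to 0.247 on 3 WT arrays and Cav3.1 KO replicate 1, and at 0.235 to 0.236 on WT replicate 3 and Cav3.1 KO replicates 2, 3 and 4. These sets were unequally divided between the genotypes. Values with the set as a block are given for the called genes and the means of transport and mural genes.

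All 30 probes were tested. The vascular label held in part: the endothelial genes Flt1, Itm2a and Ly6c1 stood at 17.1, 19.5 and 11.3 times the mean blank spot, and the pericyte-secreted vitronectin gene Vtn at 13.7 times. Vtn was the brightest mural probe, and the others ran from 1.25 (Abcc9) to 5.55 times (Acta2), with Pdgfrb at 2.2 times. Of the 17 endothelial identity probes, however, 8 lay under 1.5 times the blank, among them Pecam1, the platelet-endothelial adhesion molecule, at 1.37 and Cdh5, the cadherin of endothelial junctions, at 1.07. Cdh5 was detected on 6 of 8 arrays and the other 29 members on all 8. For such dim probes the normalised scale, which carries an offset of 50, understates a change, and for several genes a second difference is given, computed after each array's mean blank was subtracted.

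**Figure D1:**
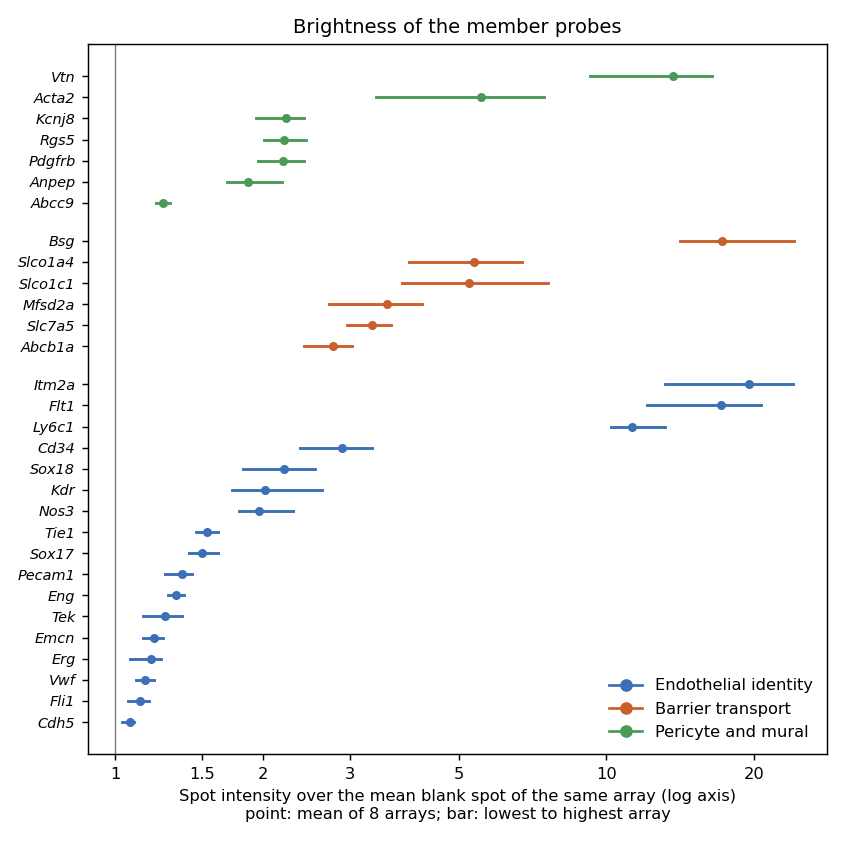
Spot intensity of each member probe divided by the mean blank spot of the same array, on a log axis; points are means of 8 arrays and bars run from the lowest to the highest array. The 6 barrier transport probes all lie at 2.78 or more, while 8 endothelial identity probes lie under 1.5, and brightness of different probes is not a comparison of transcript abundance.

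Of the 30 genes, 1 rose and 0 fell. The gene that rose was Mfsd2a, which encodes the lysophospholipid transporter of brain endothelium that brings docosahexaenoic acid into the brain and holds down vesicle traffic across the barrier. Over all probes tested, 0.288% passed, 0.199% by rising and 0.0898% by falling. The median difference of the 30 genes was -0.007, that of all probes -0.00078, and the median size of a difference was 0.0495 against 0.0342. Of the 30, 14 were above 0 and 16 below it. Without an adjustment, 7 of 30 (23.3%) had a p under 0.05, where the share over all probes was 8.10%. The values of the groups did not overlap for 6 of 30 (20%), 3 higher and 3 lower in Cav3.1 KO, against 4.95% of all probes, 2.42% higher and 2.53% lower. The members were chosen with earlier results of these arrays known, so these shares are a description.

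**Figure D2:**
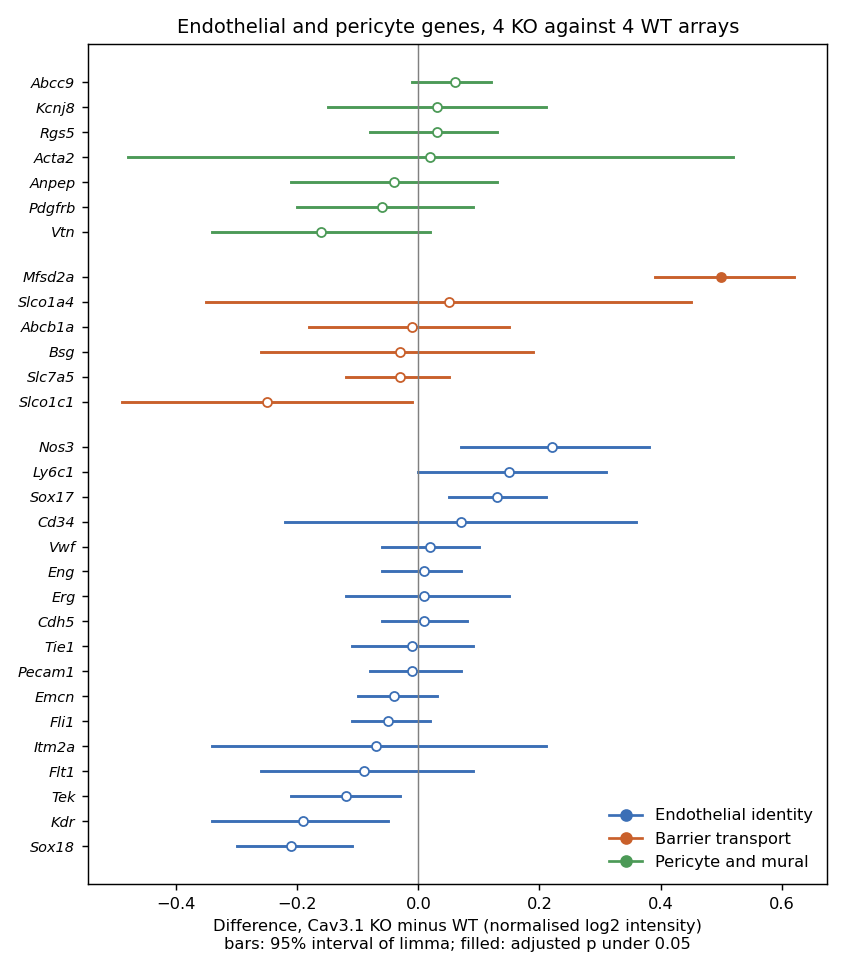
Difference between 4 Cav3.1 KO and 4 WT arrays for each of the 30 genes (points), on the normalised log2 scale, with the 95% interval of limma (bars). The filled point is Mfsd2a, at 0.50 with an interval of 0.39 to 0.62, and the other 29 points lie between -0.25 and 0.22.

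Barrier transport held the only called member. Mfsd2a was at 7.38, 7.42, 7.42 and 7.33 on the WT arrays and at 8.00, 7.76, 7.90 and 7.91 on the Cav3.1 KO arrays. Every Cav3.1 KO array was above every WT array, and the 2 groups were 0.34 apart at their nearest values. WT averaged 7.39 ± 0.0435 (SD, n = 4) and Cav3.1 KO 7.89 ± 0.102 (SD, n = 4), which is 1.42-fold (difference 0.50, SE 0.0518), with a limma adjusted p of 0.0102 and an exact two-sided permutation p of 0.0286, the smallest that 4 against 4 arrays allows. After subtraction of the blank the difference was 0.69 (SE 0.0931, adjusted p 0.0314). With the gain set as a block it was 0.53 (SE 0.0603, adjusted p 0.0475), and within the sets 0.63 and 0.44. It was 0.51 within the first series of chip numbers (3 arrays of each group) and 0.49 between the 2 later chips.

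The call of Mfsd2a was lost in 4 of 22 alternatives: without WT replicate 4 (difference 0.49, adjusted p 0.0555), within the first chip series alone, normalised by itself (0.50, adjusted p 0.165), with the replicate number as a block (0.50, adjusted p 0.129), and in the value table deposited by the authors (0.62, adjusted p 0.0667).

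**Figure D3:**
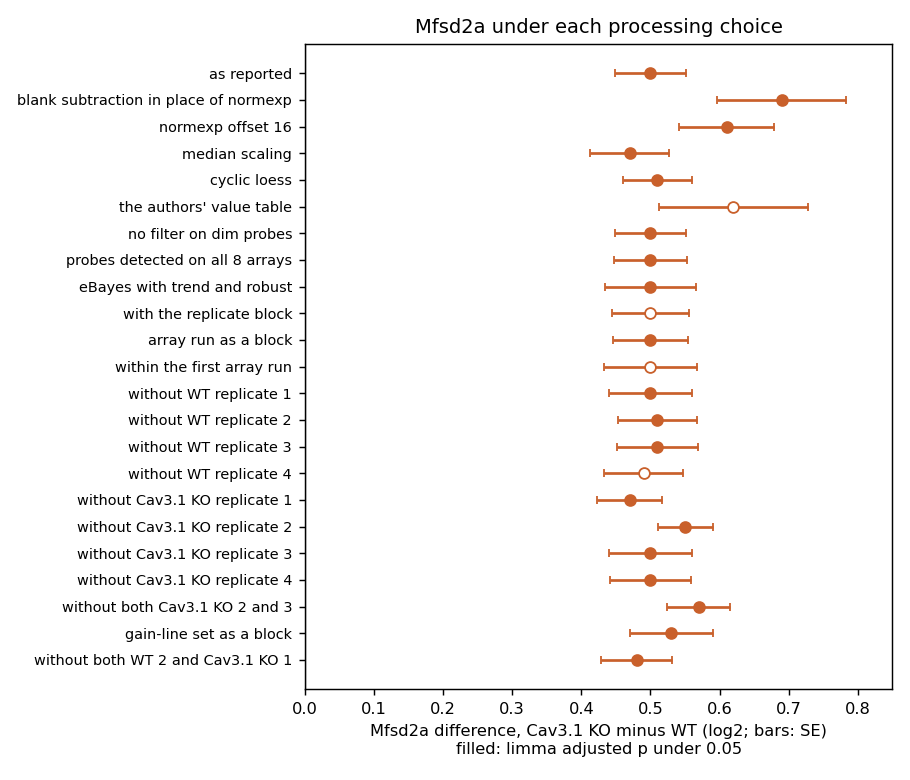
Difference of Mfsd2a between Cav3.1 KO and WT (points, log2) with its SE (bars) as reported and under 22 alternatives of processing or of arrays used. All points lie between 0.47 and 0.69, and 4 open points mark alternatives in which the adjusted p was not under 0.05.

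The other 5 barrier transport genes were not called. Abcb1a, which encodes the drug efflux pump P-glycoprotein, differed by -0.01 (95% interval -0.18 to 0.15). Slc7a5, the large neutral amino acid transporter, was at 7.55, 7.48, 7.58 and 7.63 in WT and at 7.55, 7.55, 7.51 and 7.51 in Cav3.1 KO. The groups overlapped, and its interval was the narrowest of the 5, -0.12 to 0.05 around a difference of -0.03. Bsg, or basigin, the chaperone of monocarboxylate transporters, was at 9.90, 10.21, 9.87 and 9.81 in WT and at 9.97, 9.99, 9.99 and 9.71 in Cav3.1 KO. WT replicate 2 stood highest and Cav3.1 KO replicate 4 lowest, and the difference of -0.03 (-0.26 to 0.19) became 0.05 without the former and 0.03 without the latter.

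Of the organic anion transporter genes, Slco1a4 varied widely between arrays of a group, and Slco1c1 mainly through a single array of each. Slco1a4, a carrier of bile acids and conjugated steroids, was at 8.26, 7.70, 8.49 and 8.38 in WT and at 8.01, 8.21, 8.43 and 8.39 in Cav3.1 KO. The lowest value of each group was that of WT replicate 2 and of Cav3.1 KO replicate 1, and the groups overlapped, with a difference of 0.05 (SE 0.173). Slco1c1, a carrier of thyroid hormone that astrocytes also express, was at 8.24, 8.53, 8.24 and 8.26 in WT and at 7.96, 8.35, 7.97 and 7.98 in Cav3.1 KO. A single array stood high in each group, replicate 2 in both, and the groups overlapped only through that of Cav3.1 KO. The difference of -0.25 (SE 0.103) had a limma adjusted p of 0.585. It was -0.34 without Cav3.1 KO replicate 2 (limma adjusted p 0.219). With the replicate number as a block the SE was 0.0334 (limma adjusted p 0.171). WT arrays averaged 8.12 ± 0.0325 over the 6 transport genes and Cav3.1 KO arrays 8.15 ± 0.0241 (SD, n = 4 each). The difference of 0.0371 was 0.0121 with the gain set as a block. Without Mfsd2a the mean of the other 5 was 8.26 ± 0.0408 in WT and 8.21 ± 0.0456 in Cav3.1 KO.

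Endothelial identity genes were 8 above and 9 below 0, with a median difference of -0.005 and 0 calls by limma, while 5 of the 17 had an unadjusted p under 0.05. Over the list, WT arrays averaged 6.95 ± 0.027 and Cav3.1 KO arrays 6.94 ± 0.0212 (SD, n = 4 each). That difference of -0.009 became -0.0524 after blank subtraction. With 8 of the 17 probes under 1.5 times the blank, near-equal means do not show that the list was unchanged. The 5 with a p under 0.05, which were also the 5 whose groups did not overlap, were the transcription factor genes Sox18 and Sox17, the nitric oxide synthase gene Nos3 and the receptor genes Kdr and Tek. Their differences did not share a direction. Over all probes, 0.288% were called by limma, 8.10% had an unadjusted p under 0.05 and 4.95% had groups without overlap. The members were chosen with earlier results of these arrays known, so the counts are a description.

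Sox17 and Sox18 encode closely related SOX F transcription factors of endothelium, which act in arterial and vessel development. Sox18 was at 7.08, 6.95, 7.0 and 7.09 in WT and at 6.76, 6.85, 6.87 and 6.82 in Cav3.1 KO. All 4 Cav3.1 KO arrays were below the lowest WT array, and the difference of -0.21 (SE 0.0406; -0.36 after blank subtraction) had the smallest limma adjusted p of the 29 uncalled members, 0.129. Sox17 was at 6.28, 6.32, 6.24 and 6.29 in WT and at 6.35, 6.44, 6.47 and 6.38 in Cav3.1 KO. It lay the other way, all Cav3.1 KO arrays above WT, by 0.13 (SE 0.0339; 0.37 after blank subtraction; limma adjusted p 0.267). Over the alternatives that were run, Sox18 lay between -0.42 and -0.18 with adjusted p-values of 0.084 to 0.448, and Sox17 between 0.08 and 0.37 with 0.144 to 0.65. The ETS-family genes Erg and Fli1, which hold endothelial genes active, differed by 0.01 (95% interval -0.12 to 0.15) and -0.05 (-0.11 to 0.02), with probes at 1.18 and 1.12 times the blank. After blank subtraction Erg differed by -0.01 (-0.86 to 0.84) and Fli1 by -0.45 (-0.9 to 0; limma adjusted p 0.697). The narrow intervals on the normalised scale therefore do not show that these 2 genes were unchanged.

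Kdr encodes the main signalling receptor for VEGF-A, and Flt1 a second receptor that largely acts as a decoy. Kdr was at 6.78, 7.01, 6.83 and 6.89 in WT and at 6.75, 6.61, 6.60 and 6.78 in Cav3.1 KO. The groups did not overlap but nearly touched, with WT replicate 1 and Cav3.1 KO replicate 4 equal to the second decimal, and the difference was -0.19 (SE 0.0624, limma adjusted p 0.388). Flt1 differed by -0.09 (SE 0.077), and its groups overlapped. Tek, the angiopoietin receptor also called TIE2, was at 6.12, 6.09, 6.19 and 6.13 in WT and at 5.95, 6.05, 6.08 and 5.98 in Cav3.1 KO. Each Cav3.1 KO array was below each WT array, but the probe stood at only 1.26 times the blank, and the difference of -0.12 (SE 0.0381, limma adjusted p 0.393) became -0.57 (SE 0.172, adjusted p 0.429) after blank subtraction. Tie1, the orphan relative of Tek, differed by -0.01 (95% interval -0.11 to 0.09).

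Nos3 encodes the endothelial nitric oxide synthase, whose product relaxes vessel walls. It was at 6.68, 6.51, 6.68 and 6.69 in WT and at 6.73, 6.94, 7.0 and 6.79 in Cav3.1 KO. The groups did not overlap, and the difference was 0.22 (SE 0.0681; 0.44 after blank subtraction; limma adjusted p 0.363). The 2 highest arrays were Cav3.1 KO replicates 2 and 3, which were also the highest for Sox17 and the lowest for Kdr. On these arrays the mean of 12 thalamus and habenula markers was 7.70 and 7.74, against 6.74 to 7.14 in WT and 6.89 to 6.92 on the other Cav3.1 KO arrays. Of these 12 markers 11 were above 0 in the comparison, and the listed marker Tcf7l2 was detected on 1 array. The summed blank-subtracted intensity of the 12, not normalised between arrays, was 689 to 1687 on WT arrays and 926 to 3006 on Cav3.1 KO arrays. Without Cav3.1 KO replicates 2 and 3 the differences were 0.12 for Nos3, 0.08 for Sox17 and -0.11 for Kdr. They were -0.24 for Sox18, -0.17 for Tek and 0.57 for Mfsd2a. These 2 arrays also share the gain set of lower slope. Within the sets of higher and lower slope, the differences were 0.10 and 0.23 for Nos3, 0.06 and 0.19 for Sox17, and -0.14 and -0.17 for Kdr. They were -0.28 and -0.15 for Sox18, and -0.16 in both sets for Tek. The part of neighbouring tissue or of the gain set in these differences was not tested.

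**Figure D4:**
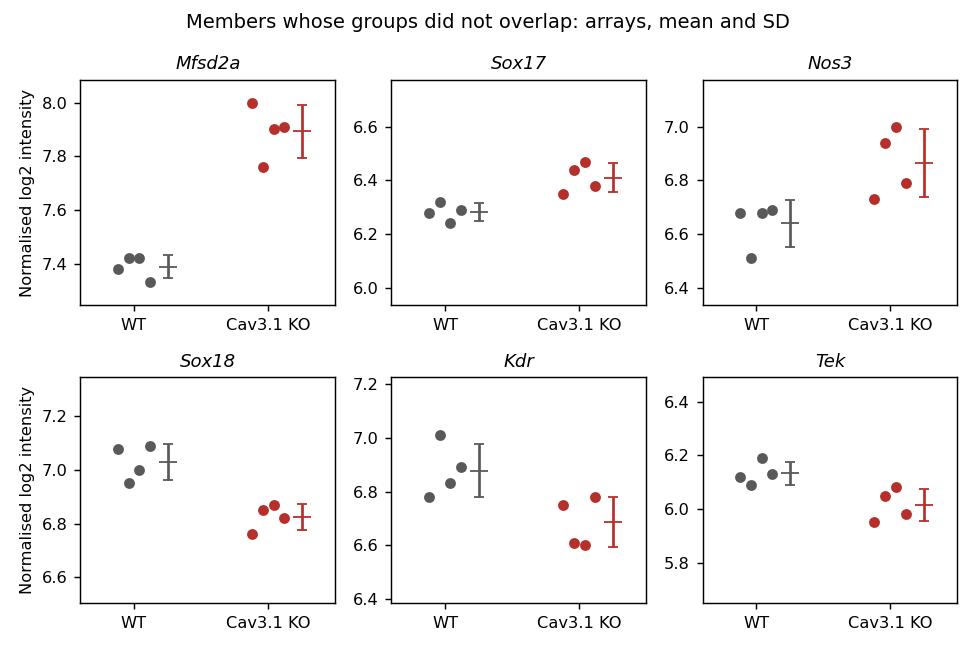
Normalised log2 intensity on each array (points) of the 6 members whose groups did not overlap, with the mean and SD of 4 arrays beside them; all panels span the same range of log2 units. Mfsd2a, Sox17 and Nos3 were higher and Sox18, Kdr and Tek lower on every Cav3.1 KO array, and the gap of Mfsd2a was the widest of the 6.

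Pecam1, Eng, which encodes the TGF-beta coreceptor endoglin, and Cdh5 differed by -0.01, 0.01 and 0.01. Vwf, the clotting factor carrier, and Emcn, the endothelial sialomucin endomucin, differed by 0.02 and -0.04. All 5 of these probes lay at 1.37 times the blank or less, and after blank subtraction the 95% interval of Cdh5 ran from -0.86 to 1.03. Itm2a, a membrane protein gene enriched in brain endothelium, differed by -0.07 (-0.34 to 0.21) and Cd34, the sialomucin of endothelial and progenitor cells, by 0.07 (-0.22 to 0.36). Ly6c1, a surface antigen of brain endothelium, differed by 0.15 (SE 0.0677, limma adjusted p 0.631). Its near-identical relative Ly6c2 had 2 probes, at 0.03 and 0.28, and neither passed, with adjusted p-values of 0.966 and 0.159. Signals of these genes may be shared between probes.

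Pericyte and mural genes were 4 above and 3 below 0, with 0 calls by limma, 0 unadjusted p-values under 0.05 and 0 members without overlap. Over all probes these shares were 0.288%, 8.10% and 4.95%, so counts of 0 among 7 genes do not set this list apart. The differences of the mural genes ran from -0.16 to 0.06. Pdgfrb, the PDGF receptor that keeps pericytes on the vessel, was at 6.99, 6.80, 6.96 and 7.07 in WT and at 6.95, 6.93, 6.95 and 6.78 in Cav3.1 KO. The groups overlapped, with a difference of -0.06 (95% interval -0.20 to 0.09). Rgs5, a regulator of G-protein signalling in pericytes, differed by 0.03 (-0.08 to 0.13). Kcnj8 and Abcc9 encode the pore and the sulfonylurea receptor of the pericyte ATP-sensitive potassium channel. Kcnj8 differed by 0.03 (-0.15 to 0.21). Abcc9 was at 6.01, 6.04, 6.03 and 6.08 in WT and at 6.07, 6.08, 6.09 and 6.14 in Cav3.1 KO. The groups overlapped only through WT replicate 4, and the difference of 0.06 (-0.01 to 0.12), from a probe at 1.25 times the blank, was 0.26 (SE 0.111, limma adjusted p 0.675) after blank subtraction.

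Vtn was at 9.72, 9.61, 9.61 and 9.74 in WT and at 9.29, 9.61, 9.66 and 9.50 in Cav3.1 KO. Its lowest array was Cav3.1 KO replicate 1, and the difference of -0.16 (SE 0.0786) had a limma adjusted p of 0.71. It was -0.08 without that array, and -0.40 and -0.02 within the gain sets. Anpep, the aminopeptidase of pericytes, was at 6.64, 6.58, 6.88 and 6.67 in WT and at 6.80, 6.57, 6.62 and 6.62 in Cav3.1 KO. The highest array was WT replicate 3, and the difference of -0.04 (-0.21 to 0.13) was 0.02 without it and 0.17 and -0.28 within the gain sets. Acta2, the smooth muscle actin of arterioles, was at 8.53, 7.87, 8.19 and 8.42 in WT and at 7.77, 8.20, 8.35 and 8.77 in Cav3.1 KO. The groups overlapped throughout, and the difference of 0.02 had the widest interval of all members, -0.48 to 0.52. On the normalised scale, the 95% interval stayed within a change of 1.5-fold either way for 29 of the 30 members, Mfsd2a being the exception. After blank subtraction, where the dim probes are not compressed, it did so for 19 of 30, by group 9 of 17 endothelial identity, 4 of 6 barrier transport and 6 of 7 mural genes.

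The mural genes differed more among arrays of a genotype than between the genotype means. The mural mean was 7.40, 7.23, 7.37 and 7.41 in WT and 7.26, 7.34, 7.37 and 7.36 in Cav3.1 KO, so that WT replicate 2 and Cav3.1 KO replicate 1 stood lowest in their groups. Among WT arrays, replicate 2 was the lowest for 16 of 30 members and 5 of 7 mural genes, where 32.6% of all probes had their lowest WT value there. Among Cav3.1 KO arrays, replicate 1 was the lowest for 13 of 30 members and 3 of 7 mural genes, against 29.5% of all probes. Slco1a4, Itm2a and Acta2, genes of endothelium and of smooth muscle, were all lowest there in each genotype. Without both arrays the members called were again 1, Mfsd2a, at 0.48 (SE 0.0509, limma adjusted p 0.0261), and the mural mean differed by -0.0345, against -0.0176 with all arrays. It differed by -0.0575 without WT replicate 2 alone, by 0.00566 without Cav3.1 KO replicate 1 alone, and by -0.0486 with the gain set as a block.

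**Figure D5:**
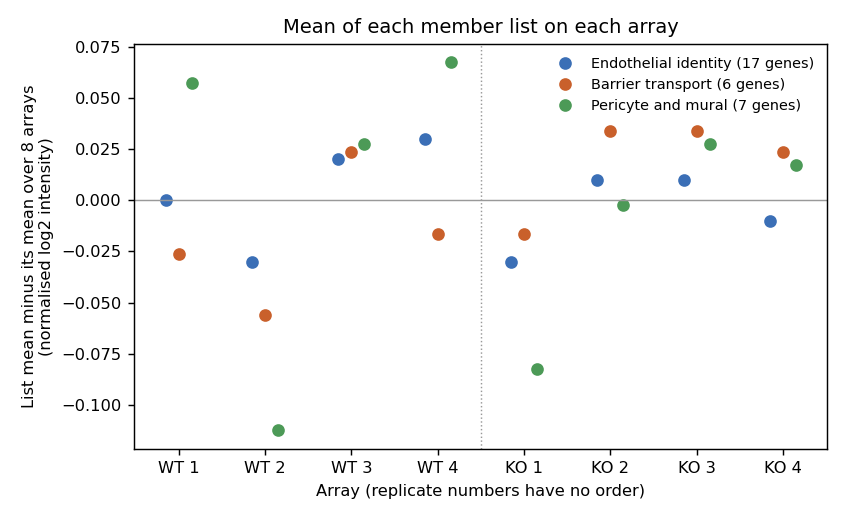
Mean normalised log2 intensity of the 17 endothelial identity, 6 barrier transport and 7 mural genes on each array, minus the mean of that list over the 8 arrays. WT replicate 2 and Cav3.1 KO replicate 1 are lowest in their groups for the mural mean, at 7.23 and 7.26, and the genotypes overlap for all 3 lists.

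Markers of other cells that the dissection could hold were read beside these genes. The mean of 12 astrocyte markers, which include Slco1c1, ran from 9.14 to 9.17 (WT) and from 9.14 to 9.18 (Cav3.1 KO), and the mean of 5 red blood cell genes was 10.69 to 11.30 and 10.52 to 11.18. Those of 12 meningeal fibroblast markers were 7.57 to 7.96 and 7.56 to 7.85, and those of 9 oligodendrocyte markers 10.20 to 10.50 and 9.96 to 10.59. Choroid plexus markers spread most, from 7.09 to 8.53 and from 6.34 to 8.44, and ependymal markers from 6.59 to 6.88 and from 6.23 to 7.15. These lists overlapped between the genotypes. The mean of 14 microglial and macrophage markers ran from 7.44 to 7.57 (WT) and from 7.42 to 7.49 (Cav3.1 KO), with 13 of 14 below 0 and a summed blank-subtracted intensity of 2664 to 3524 against 2357 to 2829. That of 11 granule neuron markers was 7.34 to 7.44 and 7.17 to 7.32, without overlap and with 8 of 11 below 0, and summed 1788 to 2484 against 1473 to 2377. These sums were not normalised between arrays, and a lower range was not particular to microglial and granule neuron markers. For astrocyte markers the sums ran from 24555 to 30971 (WT) and from 22232 to 28487 (Cav3.1 KO). For the 30 members they were 5634 to 6950 and 4495 to 6527, though the normalised means of both lists overlapped. Sums of thalamus and habenula markers, given above, ran higher in Cav3.1 KO. Of single markers, the granule neuron gene C1ql2 fell (-0.57, limma adjusted p 0.0065). The astrocyte gene Gjb6 rose (0.38, limma adjusted p 0.0269, but 0.19 after blank subtraction). Of the 11 granule neuron markers, 5 (45.5%) had groups without overlap, 4 lower and 1 higher, against 4.95% of all probes. The part of these other cells in the values of the vessel genes was not tested.

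Of 87 further vessel genes, 81 were tested, and 1 rose and 1 fell (2.47% called, against 0.288% of all probes). Their median difference was -0.015, with 29 above and 52 below 0. An unadjusted limma p under 0.05 was found for 8.64% of the 81 (8.10% of all probes), and 3.7% had groups without overlap (4.95% of all probes). Both called genes are at the barrier and were known calls of these arrays when the lists were made. Slc2a1, the glucose transporter of brain endothelium, was at 8.38, 8.13, 8.34 and 8.39 in WT and 9.26, 9.17, 9.13 and 9.33 in Cav3.1 KO (difference 0.91, SE 0.0668, limma adjusted p 0.00191). Cldn5, the claudin of endothelial tight junctions, was at 9.72, 9.58, 9.77 and 9.79 in WT and 8.67, 8.92, 8.98 and 9.11 in Cav3.1 KO (difference -0.79, SE 0.0922, limma adjusted p 0.0182). Neither gene's groups overlapped. With the gain set as a block the differences were 0.92 for Slc2a1 and -0.90 for Cldn5, both at an adjusted p of 0.0206. Cldn5 was no longer called when WT replicate 1, 3 or 4 was left out (adjusted p 0.067, 0.0828 and 0.0833), or Cav3.1 KO replicate 2, 3 or both (0.0684, 0.0561 and 0.157). Within the first chip series neither gene was called, at 0.11 for Cldn5 and 0.0642 for Slc2a1.

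The upstream sequence of these 3 called vessel genes is shown because these are the vessel genes that passed the test. Each is the 250 bases before the annotated start in RefSeq (GRCm38.p6), in the direction of the gene; Mfsd2a lies at chr4:122961189-122961438 on the minus strand, Slc2a1 at chr4:119108495-119108744 on the plus strand and Cldn5 at chr16:18776597-18776846 on the plus strand. Capitals mark matches to ACGTG, the core of the hypoxia response element, or to GGGCGG, the GC box, on either strand.
Mfsd2a: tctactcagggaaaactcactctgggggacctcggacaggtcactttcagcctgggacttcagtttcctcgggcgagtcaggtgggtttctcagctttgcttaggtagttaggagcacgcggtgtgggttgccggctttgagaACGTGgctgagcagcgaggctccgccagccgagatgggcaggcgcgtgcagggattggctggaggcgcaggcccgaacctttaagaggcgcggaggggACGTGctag
Slc2a1: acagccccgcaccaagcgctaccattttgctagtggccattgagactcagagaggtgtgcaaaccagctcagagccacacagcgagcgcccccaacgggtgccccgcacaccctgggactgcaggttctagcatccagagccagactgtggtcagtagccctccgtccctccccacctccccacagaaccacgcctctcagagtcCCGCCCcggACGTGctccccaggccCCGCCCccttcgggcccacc
Cldn5: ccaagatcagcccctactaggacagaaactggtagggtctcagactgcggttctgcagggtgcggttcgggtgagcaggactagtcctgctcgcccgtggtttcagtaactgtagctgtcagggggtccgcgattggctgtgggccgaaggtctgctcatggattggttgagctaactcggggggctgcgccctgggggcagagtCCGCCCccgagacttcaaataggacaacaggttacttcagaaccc
Mfsd2a held ACGTG at 2 places and Slc2a1 at 1, while Cldn5 held none in this window. Over 27025 upstream windows of 250 bases, 1 per gene, 16.6% held ACGTG and 32.9% GGGCGG. Of the 21 members with an upstream sequence, 1 held ACGTG, namely Mfsd2a, and 7 held GGGCGG. Further searches were for CGGAAG, a site of ETS factors such as Erg and Fli1 (13.8% of windows, 1 of 21 members), ACAATG, a site of SOX factors (11%, 1 of 21), and the glucocorticoid receptor palindrome (0.381%, 0 of 21), all on both strands. None of these 3 motifs was in the windows of Mfsd2a, Slc2a1 or Cldn5. ACGTG and GGGCGG matches did not overlap each other in these windows. A match is a run of letters and was not tested as a site.

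Among 15 angiogenic ligands and their partners, 10 were below 0 and 0 passed by limma, where 0.288% of all probes passed. Vegfa, the main endothelial growth factor, was at 6.18, 6.22, 6.13 and 6.12 in WT and 6.04, 5.99, 6.06 and 6.03 in Cav3.1 KO. The groups did not overlap, and the difference was -0.13 (SE 0.0305; -0.59 after blank subtraction; limma adjusted p 0.192) from a probe at 1.28 times the blank. Nrp1, a coreceptor of Kdr, differed by -0.23 (SE 0.0937) and Vegfb, a ligand of Flt1, by 0.17 (SE 0.0845), and neither passed. Without WT replicate 2 these were -0.13 (SE 0.0468) and 0.11 (SE 0.0789). Vegfa was the 1 gene of these 15 (6.67%) whose groups did not overlap, against 4.95% of all probes. The receptor gene Kdr was also lower on every Cav3.1 KO array, though its groups nearly touched. Neither the Vegfa nor the Kdr difference passed the test, and a link between them was not tested.

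Of 27 tested Notch, Wnt and TGF-beta probes, 14 lay under 1.5 times the blank, where the normalised scale understates a change. Of these genes, 12 were above and 15 below 0. By limma 0 passed and 0 unadjusted p-values were under 0.05, against 0.288% and 8.10% of all probes. The nearest were Hey1, a Notch target, at -0.14 (SE 0.0638), the TGF-beta receptor gene Tgfbr2 at -0.09 (SE 0.0503) and the Wnt and norrin receptor gene Fzd4 at 0.12 (SE 0.0677). Of 21 junction and further barrier genes, 14 were below 0, and after the 2 called ones came the adhesion molecule gene Esam at 0.13 (SE 0.0507), the amino acid transporter gene Slc38a5 at -0.15 (SE 0.0665) and the occludin gene Ocln at -0.13 (SE 0.0633). Of 18 further mural and matrix genes, 13 were below 0 and 0 passed by limma. Unadjusted p-values under 0.05 numbered 2 (11.1%, against 8.10% of all probes). Higd1b, a pericyte marker, differed by -0.19 (SE 0.0576), Col4a2, a collagen chain of the basement membrane, by 0.12 (SE 0.0447), and the forkhead gene Foxc1 by -0.13 (SE 0.0594). The dimmer of these probes lay at 1.38 (Foxc1), 1.45 (Fzd4), 1.61 (Ocln), 1.9 (Tgfbr2) and 1.94 (Higd1b) times the blank. After blank subtraction they differed by -0.43, 0.36, -0.36, -0.19 and -0.37 in that order, with limma adjusted p-values of 0.502 or more.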

How the data were processed

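The authors deposited, for each array, a median spot intensity of the Cy5 channel, not normalised, and scan flags, per the file headers, and a table of processed intensity, scaled to a common median per array; the sources used here do not state how. RNA was amplified and hybridised in a single colour to a TORAY chip, per the labels' protocols. The intensities were corrected by normexp (offset 50, fitted on all spots, with no local background subtracted), and the probes, without control spots, were quantile normalised as log2 values. Probes detected on at least 4 of 8 arrays were tested; 2239 dim probes and 84 with a spot marked not good at a gain were left out. The 2 genotypes were tested with limma 3.58.1 (R 4.3.3). The same fit was run on simulated arrays with independent noise. Those held no gain sets, chip series or neighbouring tissue, so that run does not bear on such effects. Single genes were also compared by exact two-sided permutation over 70 arrangements. Of 23473 probes, 20690 had 1 gene symbol and 2783 none. Upstream sequences were those of RefSeq for 21 of the 32 genes.

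Members, lists and motifs were chosen with earlier results of these data known. By rule, array values are given for called members, members without overlap and the 4 of smallest p in each group; of each further vessel list, the called genes and 3 more of smallest p are named. Chip numbers in the file names form 2 series, treated as array runs, with 3 and 1 arrays per group. The number of arrays limits the precision.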

Additional observations from a re-analysis of the deposited data

Results flagged for a closer look

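On 94 checks of a group of 4 arrays, 12 values, of 11 genes, stood far from the other 3 arrays by Dixon's criterion, where chance gives about 1 in 20. WT replicate 2 gave 6 of them: Tie1 at 6.30 (others 6.43 to 6.44), Nos3 at 6.51 (6.68 to 6.69), Abcb1a at 7.14 (7.32 to 7.34), Kcnj8 at 6.80 (6.96 to 6.99), and, on the high side, Slco1c1 at 8.53 (8.24 to 8.26) and Nrp1 at 7.31 (6.91 to 6.94). Cav3.1 KO replicate 4 was low for Emcn at 5.94, Bsg at 9.71 and Pdgfrb at 6.78. WT replicate 1 was low for Cd34 at 7.17 and Vwf at 5.88, and Cav3.1 KO replicate 2 was high for Slco1c1 at 8.35. Mfsd2a and the means of the 3 member lists gave none.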

How the results depend on the processing

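Mfsd2a kept its direction under all 22 alternatives and passed in 18. Over 27 named genes and these alternatives, 594 values were compared: 573 kept direction and side of the threshold, 13 lost the call and 8 changed sign, all 8 for uncalled genes. The sign changes were Bsg at 0.01 within the first array run, 0.01 with the gain-line set as a block and 0.03 without both WT 2 and Cav3.1 KO 1 (-0.08 to 0.05 leaving out single arrays), and Anpep at 0.03 within the first run and 0.01 without both Cav3.1 KO 2 and 3 (-0.09 to 0.02). Leaving out single arrays gave 0 to 1 members, 1 to 2 other vessel genes and 16 to 49 probes called, against 1, 2 and 61. With the replicate block these were 0, 1 and 8 (Mfsd2a 0.50, adjusted p 0.129). Same-numbered arrays correlated at -0.115 to 0.0109, and other pairs across the genotypes at -0.372 to 0.404. With 4 arrays per group, each centred on its group mean, this cannot decide whether the numbers pair the samples. Within the first run the called members, other vessel genes and probes were 0, 0 and 7. Without both Cav3.1 KO 2 and 3, 17 probes and 1 other vessel gene were called. The gain-line set gave 23 probes and median scaling 36. The authors' value table gave 0 members and 34 probes. List means moved by more than their spread for endothelial identity under blank subtraction (-0.0524) and in the value table (-0.112), and for barrier transport under median scaling (-0.00708) and in the value table (-0.0119). In that table the median of all probes lay at -0.0656, against -0.00078 as reported, so its list means carry this general shift. The cause of the other changes was not tested. The gain-line block and the pair WT 2 with Cav3.1 KO 1 were chosen after seeing the data. Averaging several probes of a gene was not run, because each member had 1. Dim probes limit what the endothelial identity genes can show.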
